A study of Mus musculus with 2 samples.

Results

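The colony-stimulating factors are the cytokines that myeloid cells need to form, survive and act, and the genes described here are 4 ligands (Csf1, Il34, Csf2 and Csf3) and 4 receptor chains (Csf1r, Csf2ra, Csf2rb and Csf3r). They were found by symbol in the deposited gene list, and all 8 of 8 were present among 34097 listed genes. CSF1 and IL-34 are separate ligands of 1 receptor, CSF1R, a tyrosine kinase that macrophages and monocytes depend on. CSF2, also called GM-CSF, binds a specific alpha chain (Csf2ra) that signals through a beta chain (Csf2rb) shared with interleukin receptors. CSF3, or G-CSF, binds CSF3R and drives the making of neutrophils. In tumours, CSF1R ligands are known for maintaining tumour-associated macrophages, and CSF2 is a product of activated lymphocytes.

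The 2 libraries were droplet (10x Genomics) single-cell RNA-seq of mouse tumours grown from LLC cells, a mouse lung carcinoma line. The control library came from cells labelled NC with the treatment given as control, and the knockdown library from cells labelled SH that carried an shRNA against GFPT2, an enzyme that starts the hexosamine pathway. The labels give no strain, age, host, site of growth or number of animals, and they call the tissue a lung cancer xenograft. Each group was 1 library, so no difference between them has a replicate check and no p-value is given.

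The control library held 11977 cells and the knockdown library 12853, with medians of 10312 and 7496 unique molecular identifiers (UMIs, each a counted RNA molecule) per cell. After filters 10662 and 11450 cells were kept, holding 138972698 and 118549975 UMIs, and 37 cell barcodes occurred in both libraries. Gfpt2, the targeted gene, was at 2.05 CPM (95% Poisson interval 1.78 to 2.34) in the tumour-like cells of the control library and at 0.650 CPM (0.492 to 0.842) in those of the knockdown library. CPM is the UMIs of a gene per 1000000 UMIs of a population. Where a pair of values is given without a library, the control comes first. Intervals throughout cover counting error only, not differences between tumours.

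Cells were classed by summed marker UMIs. Macrophages had C1qa, C1qb and C1qc at 10 or more per 10000 UMIs (3990 control and 4556 knockdown cells). Monocytes had Lyz2 at 20 or more and C1q under 5 per 10000 (144 and 40 cells). T cells had at least 2 UMIs of Cd3d, Cd3e and Cd3g (786 and 676 cells). Tumour-like cells had no Ptprc UMI, Lyz2 under 5 per 10000 and at least 5000 UMIs (4986 and 5211 cells). Of the markers listed for LLC cells, tumour-like cells carried Hmga2 at 219.7 and 218.5 CPM. The epithelial markers Krt7, Epcam and Krt18 were near 0. Krt7 was at 1.10 and 0.992 CPM, Epcam at 0.0386 and 0.0913 CPM, and Krt18 at 1 and 0 UMIs. The list also held Krt8, whose level in tumour-like cells is not reported here. Fibroblast markers summed to 1109 and 1183 CPM in these cells, so the name tumour-like rests on the rule, Hmga2 and the low Xist. Tumour-like cells carried Xist, used here as a mark of host cells, at 2.88 and 3.99 CPM, against 535 and 529 CPM in the macrophages that were low in tumour RNA.

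Many cells that met the macrophage rule carried RNA typical of the tumour cells, and more so in the knockdown library. A list of 54 genes, high in tumour-like cells and at least 10-fold lower in leukocytes, gave each cell a tumour RNA share, scaled to 100% in tumour-like cells. Of the macrophages, 401 of the control library (10.1%) and 1374 of the knockdown library (30.2%) were at or above 20%, and over 50% lay 231 (5.79%) and 1122 (24.6%). The summed tumour RNA of the class was 12.3% and 29.1%. Below the 20% limit it was 4.24% and 4.47%. With Scrublet's own doublet threshold, which removed 1089 and 2808 cells, the macrophage ratios of the receptors came close to those of the cells low in tumour RNA. The main leukocyte values are therefore given for all cells of a class and for those with under 20% tumour RNA, and otherwise for the latter, as stated.

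The RefSeq promoter table (GRCm38.p6) held 4 of the 8 members (Csf1, Csf2, Csf2ra and Csf3r), and 3 are shown: 2 receptor chains of the macrophages and the ligand of the tumour-like cells. Each run is the 250 bases before the annotated start, 5′ to 3′ in the direction of the gene. Csf2ra lies at chr19:61228419-61228668 on the minus strand, Csf3r at chr4:126024409-126024658 on the plus strand and Csf1 at chr3:107760470-107760719 on the minus strand. Capitals mark GAGGAA on either strand, the core bound by PU.1, the myeloid factor encoded by Spi1.
Csf2ra: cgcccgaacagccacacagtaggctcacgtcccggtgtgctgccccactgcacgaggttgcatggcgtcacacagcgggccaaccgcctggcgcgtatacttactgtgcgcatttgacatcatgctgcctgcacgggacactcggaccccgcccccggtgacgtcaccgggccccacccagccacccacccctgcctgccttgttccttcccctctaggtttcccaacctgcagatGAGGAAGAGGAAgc
Csf3r: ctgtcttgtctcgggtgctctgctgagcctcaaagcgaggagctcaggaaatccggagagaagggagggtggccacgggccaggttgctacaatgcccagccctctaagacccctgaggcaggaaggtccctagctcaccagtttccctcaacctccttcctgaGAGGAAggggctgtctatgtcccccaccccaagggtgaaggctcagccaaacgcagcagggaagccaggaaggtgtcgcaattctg
Csf1: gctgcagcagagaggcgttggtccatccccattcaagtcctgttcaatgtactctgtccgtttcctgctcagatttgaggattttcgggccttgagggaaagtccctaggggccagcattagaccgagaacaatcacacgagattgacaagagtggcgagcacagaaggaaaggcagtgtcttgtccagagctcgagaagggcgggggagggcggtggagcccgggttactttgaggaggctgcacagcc
Csf2ra held 2 matches, at bases 14 to 9 and 8 to 3 before the start, and Csf3r 1 match, at bases 86 to 81. The Csf1 and Csf2 windows held 0. Among 32851 promoters of the same length, 23.3% held at least 1 match. With windows for only 4 of the 8 members, no division of ligands from receptors is read from any motif. The NFAT core (GGAAA, in 55.6% of promoters) had 3 matches in Csf1, 2 in Csf2, 1 in Csf2ra and 2 in Csf3r. AP-1 (TGANTCA, in 6.75%) had 0 in each of these. GC boxes (GGGCGG, searched on both strands, found in 32.7% of promoters) numbered 2 in Csf1, 1 in Csf2 and 1 in Csf2ra. GGAANNTCC, a form of the kappaB site found in 3.59%, had 1 match in Csf1 and 1 in Csf3r. These matches describe letters, not bound sites, and no link of PU.1 to the levels of these genes was tested. Spi1 itself was at 475 CPM in control macrophages and 503 CPM in knockdown macrophages low in tumour RNA, against 2.53 and 3.11 CPM in tumour-like cells.

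Most CSF1R ligand RNA and most receptor RNA lay in different cells. Tumour-like cells held 86.2% of the Csf1 UMIs of the control library and 82.5% of those of the knockdown library, and 88.4% and 83.7% of the Il34 UMIs. Macrophages held 92.6% and 91.6% of the Csf1r UMIs, 88.6% and 89.2% of the Csf2ra UMIs, 82.6% and 81.8% of the Csf2rb UMIs, and 90.1% and 92.3% of the Csf3r UMIs. These shares count cells of exactly 1 class. The same tumour-like cells held 74.1% and 73.4% of all UMIs, so their share of ligand UMIs was only moderately above that of RNA in general, and the macrophages held 16.4% and 17.3%. Fewer cells of a class and less RNA per cell both lower such a share.

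**Figure D1:**
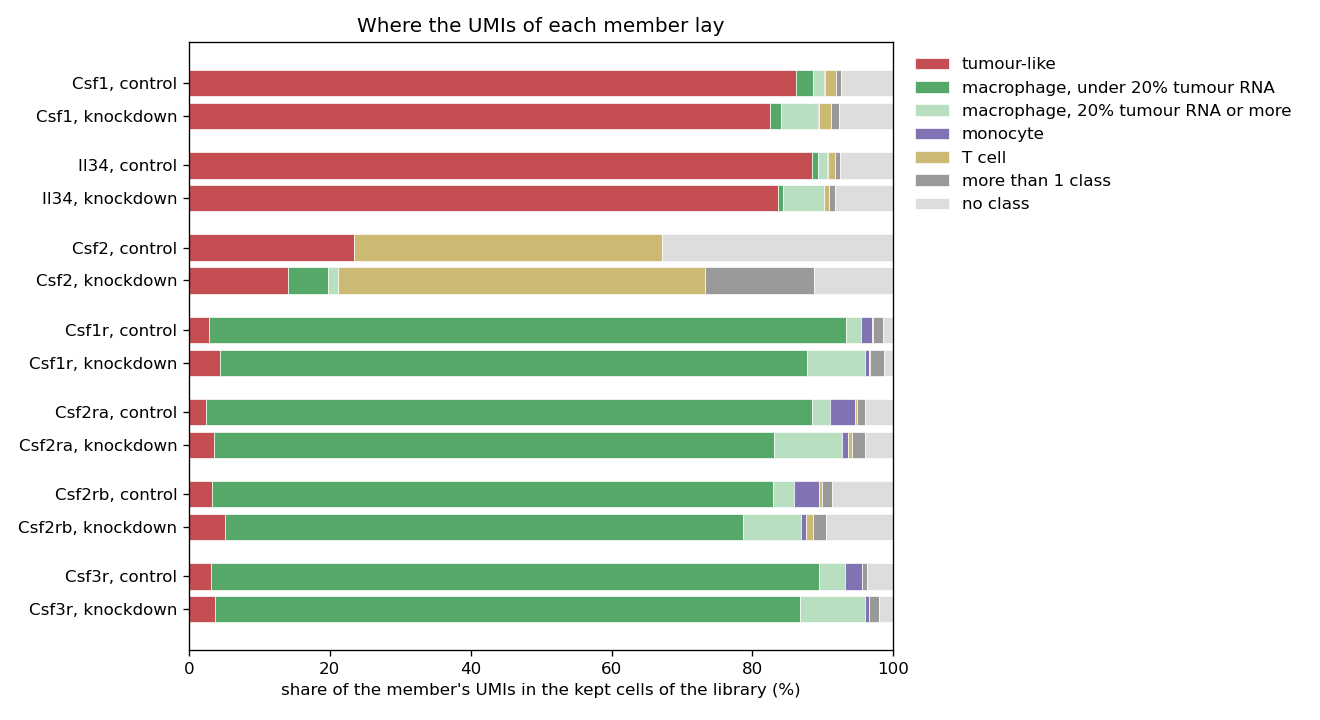
Share (%) of each member's UMIs by cell class, with 1 bar for each gene and library; macrophages are split by tumour RNA. Ligand UMIs of Csf1 and Il34 lay mainly in tumour-like cells, receptor UMIs mainly in macrophages, and 43.8% (control) and 52.1% (knockdown) of Csf2 UMIs in T cells; Csf3 had only 6 and 4 UMIs and is not drawn.

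Both CSF1R ligands were well measured in tumour-like cells. Csf1 was at 68.0 CPM (66.4 to 69.6) for the control tumour and 74.7 CPM (72.9 to 76.5) in the knockdown library. The log2 ratio, knockdown over control, was 0.14 (0.07 to 0.20), a range taken from the pair of Poisson intervals. Il34 was at 69.3 CPM (67.7 to 70.9) and 72.9 CPM (71.2 to 74.8), a log2 ratio of 0.07 (0.01 to 0.14). The median log2 ratio of the 12372 genes measured in these cells (at least 100 UMIs in 1 library) was 0.04, so both ligands lay close to the bulk of genes. Of 4 measured members none was past 1.5-fold in tumour-like cells, where 3.06% of all measured genes were (2.33% higher and 0.736% lower in the knockdown).

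Csf1 and Il34 were spread over most tumour-like cells. Csf1 had a UMI in 61.0% of the control cells and 60.2% of the knockdown cells, and Il34 in 63.8% and 60.8%. At an equal depth of 3000 UMIs per cell the shares came to 17.6% and 19.8% for Csf1, and to 18.2% and 19.6% for Il34. The 10 cells with most Csf1 held 2.27% and 1.99% of its UMIs. Among tumour-like cells of 10000 to 20000 UMIs, both ligands were seen together in 32.1% of the control cells, where the product of the single shares was 31.7%. In the knockdown library these shares were 36.6% and 35.9%. Csf1 was seen in 55.7% of control cells with Il34 and 54.3% of those without, and in 60.3% and 57.1% of knockdown cells.

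Within the tumour-like cells Csf1 varied with the matrix programme and Il34 hardly did. Cells high in collagen genes (Col1a1, Col1a2 and Col3a1 at 20 or more per 10000) had Csf1 at 59.0 CPM for the control tumour and 66.9 CPM in the knockdown library. The other tumour-like cells had 70.8 and 77.8 CPM, so matrix-high cells were lower in both libraries. Il34 was at 69.2 and 73.8 CPM in matrix-high cells and at 69.3 and 72.6 CPM in the rest. Cycling cells (at least 3 UMIs of Mki67 and Top2a) and non-cycling cells had Csf1 at 70.1 and 66.1 CPM in the control and 75.9 and 73.6 CPM in the knockdown library. Cells with the keratin Krt16 or the protease Klk8 (361 control, 123 knockdown) had Csf1 at 55.4 and 73.5 CPM, a log2 ratio of 0.41 (0.07 to 0.74). Il34 in these cells was at 60.6 and 75.7 CPM, a log2 ratio of 0.32 (-0.00 to 0.64).

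In macrophages the level of the same ligands varied with tumour RNA. Over all cells of the rule, Csf1 was at 15.05 CPM for the control tumour and 28.2 CPM for the knockdown tumour, giving a log2 ratio of 0.90 (0.64 to 1.17). Il34 was at 9.02 and 25.3 CPM, a log2 ratio of 1.49 (1.17 to 1.81). They were the 2 of 6 measured members past 1.5-fold, in a class where 11.7% of all measured genes were past it (10.5% higher and 1.26% lower in the knockdown). These calls depended on the doublet step: without doublet removal the ratios were 0.35 for Csf1 and 0.43 for Il34, and with Scrublet's own threshold 0.20 and 0.52, all inside 1.5-fold. With every cell weighted equally they were 0.52 and 0.88. In cells under that 20% limit, Csf1 was at 9.55 and 9.23 CPM, a log2 ratio of -0.05 (-0.51 to 0.40). Il34 was then at 3.50 and 3.81 CPM, from 74 and 54 UMIs. None of the 5 members still measured was past 1.5-fold in these cells, where 3.04% of genes were (1.28% higher and 1.76% lower).

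The level that tumour RNA alone would give was computed from each class's tumour RNA share and the level in tumour-like cells. Genes of the list needed only to be 10-fold lower in leukocytes, so some of a low share can be the leukocytes' own RNA. How much was not tested, and in cells low in tumour RNA the computed level is uncertain to that extent. For Il34 the observed level in macrophages low in tumour RNA was 1.19 times that level in the control and 1.17 times in the knockdown library. For Csf1 the observed level was 3.31 and 2.76 times it. Macrophages at or above 20% tumour RNA had Il34 at 54.3 CPM in the control, where tumour RNA gave 54.3 CPM, and at 66.9 CPM in the knockdown library, where it gave 56.0 CPM. The interval of the knockdown value, 61.1 to 73.1 CPM, lay above the tumour RNA level. In the cells low in tumour RNA the Il34 intervals, 2.75 to 4.39 and 2.86 to 4.97 CPM, held the tumour RNA levels of 2.94 and 3.26 CPM, while Csf1 exceeded it in the cells low in tumour RNA.

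**Figure D2:**
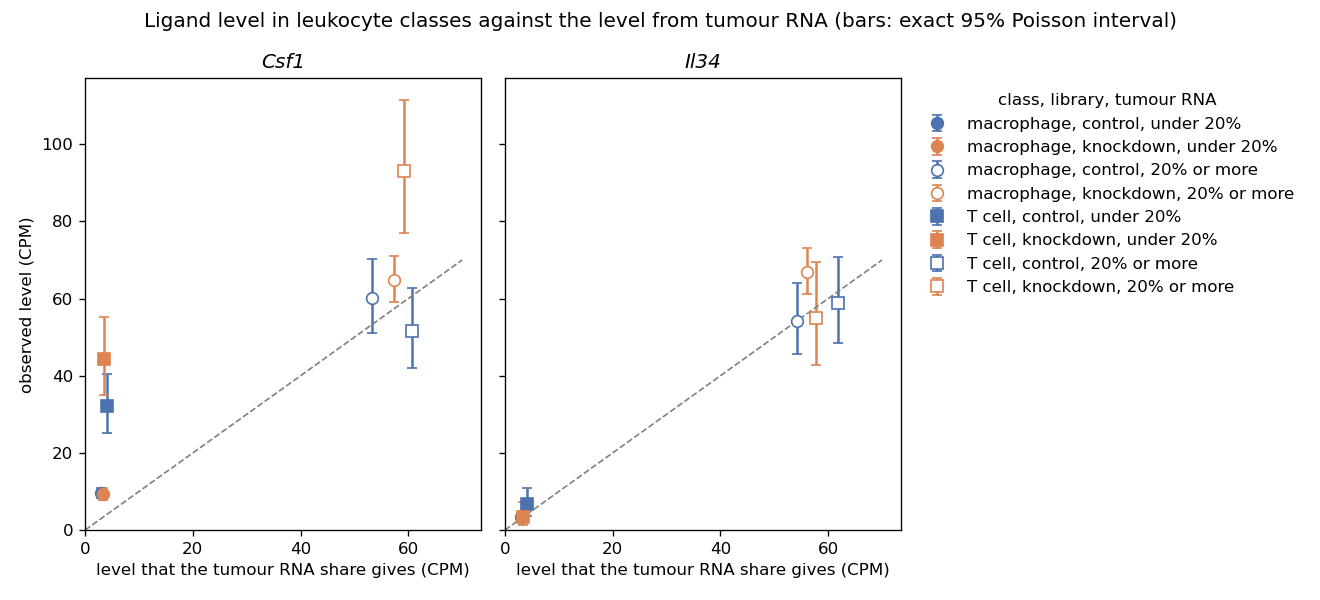
Observed CPM of Csf1 (left) and Il34 (right) in macrophages and T cells, against the CPM that the tumour RNA share of the same cells gives; bars are exact 95% Poisson intervals and the dashed line marks equality. Il34 points lie near the line, and Csf1 in T cells low in tumour RNA lies far above it, at 32.1 CPM (control) and 44.3 CPM (knockdown).

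T cells low in tumour RNA carried Csf1 beyond the level of that RNA. Across all cells of the rule Csf1 was at 41.1 CPM for the control tumour and 64.4 CPM for the knockdown tumour, giving a log2 ratio of 0.65 (0.22 to 1.08). It was 1 of 3 measured members past 1.5-fold, against 3.15% of all genes measured in T cells (2.07% higher and 1.08% lower). This ratio was inside 1.5-fold without doublet removal (0.33), with Scrublet's own threshold (0.44) and under TMM scaling (0.56). With under 20% tumour RNA the levels were 32.1 CPM (25.1 to 40.4) from 72 UMIs and 44.3 CPM (35.1 to 55.2) from 79 UMIs. The 2 intervals overlapped, and the log2 ratio was 0.47 (-0.20 to 1.14). These levels were 7.98 and 12.8 times what tumour RNA gives, while Il34 was at 1.63 and 1.00 times. Over all T cells the Csf1 level was 1.36 and 2.43 times it, and in those at or above 20% tumour RNA 0.850 and 1.57 times. CD8 T cells low in tumour RNA had Csf1 at 40.1 and 48.3 CPM, with UMIs in 48 of 431 and 55 of 367 cells.

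The make-up of the ligand signal differed between tumour-like cells and leukocytes low in tumour RNA. Of the summed Csf1 and Il34 UMIs, Csf1 made up 49.5% (48.7 to 50.4, Clopper-Pearson) in control and 50.6% (49.7 to 51.5) in knockdown tumour-like cells. In macrophages low in tumour RNA it made up 73.2% (67.5 to 78.3) and 70.8% (63.7 to 77.2). In T cells low in tumour RNA it made up 82.8% (73.2 to 90.0) and 92.9% (85.3 to 97.4). The share in both leukocyte sets lay above that of the tumour-like cells without overlap of the intervals. Over all cells of the rule it was 62.5% (58.4 to 66.5) and 52.7% (49.8 to 55.6) in macrophages and 57.2% (51.4 to 62.9) and 72.3% (66.6 to 77.6) in T cells. The knockdown macrophages then overlapped the tumour-like cells, and the order of macrophages and T cells was not the same in both libraries.

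Csf2 was rare and lay mainly in lymphocytes. The kept cells held 64 Csf2 UMIs in 26 cells of the control library and 71 UMIs in 39 cells of the knockdown library. T cells low in tumour RNA held 27 UMIs in 9 of 687 cells and 44 UMIs in 20 of 567 cells, or 12.03 CPM (7.93 to 17.5) and 24.7 CPM (17.9 to 33.1). The log2 ratio was 1.04 (0.03 to 2.06), on counts below the 100 UMIs set for a measured gene. Over all T cells it was 1.23 (0.26 to 2.23), from 28 and 48 UMIs. In T cells that met no other class rule it was 0.74 (-0.33 to 1.82), from 27 and 34 UMIs. Up to 8 and 9 of the UMIs came from 1 cell, so a few cells set each level.

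NK cells, gated by Ncr1 and Klrb1c without Cd3 UMIs, also carried Csf2. Those low in tumour RNA had 13 UMIs in 3 of 31 control cells and 9 UMIs in 6 of 41 knockdown cells, or 66.4 CPM (35.4 to 114) and 39.6 CPM (18.1 to 75.2). Of these, 10 and 4 UMIs came from 1 cell, so the control level rests mainly on a single cell. T cells with neither a clear CD8 nor CD4 nor a regulatory signature had 17 UMIs in 3 of 207 and 17 UMIs in 5 of 162 cells, or 31.0 and 43.7 CPM, and CD8 T cells 10 and 22 UMIs, or 6.36 and 16.9 CPM. The NK level was above that of CD8 T cells in both libraries, with intervals that overlapped in the knockdown. No order is read between NK cells and the T cells of no signature, whose intervals overlapped in both libraries. CD4 T cells had 0 UMIs in 32 control cells, which allows up to 33.1 CPM, and 5 UMIs in 23 knockdown cells. Tumour-like cells held 15 UMIs in 8 cells and 11 UMIs in 6 cells, or 0.145 and 0.125 CPM. Control macrophages held 0 UMIs, which allows up to 0.142 CPM in those low in tumour RNA. Knockdown macrophages low in tumour RNA held 14 UMIs in 6 cells, 9 of them in 1 cell, and 11 of the 71 UMIs of that library lay in cells of more than 1 class.

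Csf3 was close to undetected. The control library had 6 UMIs and the knockdown library 4, never more than 1 per cell, and 4 and 2 of them lay in tumour-like cells. That is 0.0386 CPM (0.0105 to 0.0988) and 0.0228 CPM (0.00276 to 0.0824) in tumour-like cells. Macrophages low in tumour RNA had none, which allows up to 0.142 and 0.211 CPM.

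**Figure D3:**
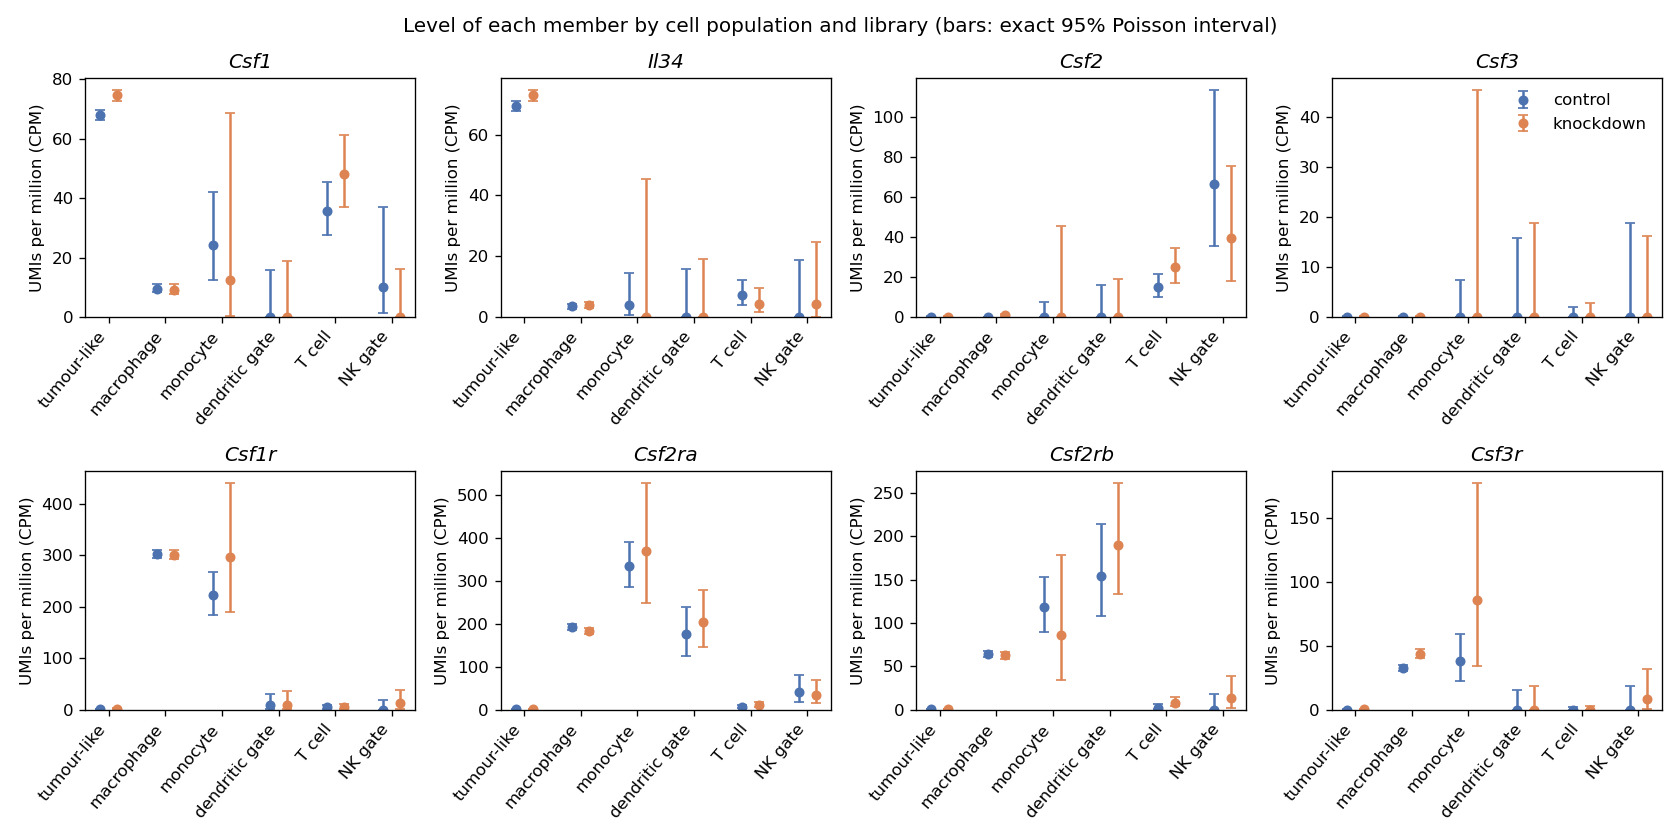
Level (CPM, linear axis, separate scale for each gene) of the 8 members in 6 populations of the control (blue) and knockdown (orange) library; leukocytes have under 20% tumour RNA and the T cells met no other class rule. Points are CPM of summed UMIs and bars exact 95% Poisson intervals; Csf1 and Il34 stand highest in tumour-like cells, Csf1r in macrophages and monocytes, and Csf2 in NK cells and T cells.

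The CSF1R receptor gene stood at nearly equal levels in both libraries once macrophages were low in tumour RNA. Csf1r was at 302 CPM (295 to 309) in control and 301 CPM (292 to 310) in knockdown macrophages with under 20% tumour RNA, a log2 ratio of -0.01 (-0.08 to 0.07). Over all cells of the rule it was at 276 and 219 CPM, a log2 ratio of -0.33 (-0.41 to -0.26). Csf1r UMIs were seen in 72.7% and 64.3% of the macrophages low in tumour RNA, and in 57.6% and 58.9% at 3000 UMIs per cell. Monocytes low in tumour RNA had 223 CPM (183 to 268) and 296 CPM (190 to 441), from 111 and 24 UMIs (216 and 233 CPM over all monocytes), below the macrophage interval in the control and overlapping it in the knockdown. Tumour-like cells had 2.03 and 2.70 CPM, 0.671% and 0.899% of the macrophage level, and their macrophage markers stood at a similar 0.686% and 0.825%.

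Csf1r in T cells stood at a share close to that of macrophage markers. T cells low in tumour RNA had Csf1r at 12.1% and 13.98% of the macrophage level, and macrophage markers at 11.4% and 12.1%. In T cells that met no other rule both were low: Csf1r was at 1.64% and 1.94%, and the markers at 1.63% and 1.21%. In those that also met the macrophage rule (105 and 88 cells) Csf1r was at 58.4% and 58.6% and the markers at 54.8% and 52.1%. T cells of no other class held few UMIs of the GM-CSF receptor chains. Csf2ra was at 6.60 CPM (3.41 to 11.5) and 11.7 CPM (6.66 to 18.9), or 3.42% and 6.38% of the macrophage level, on 12 and 16 UMIs. Csf2rb was at 2.75 CPM (0.893 to 6.42) and 8.01 CPM (4.0 to 14.3), or 4.28% and 12.7%, on 5 and 11 UMIs, 4 of the latter in 1 cell. These T cells were chosen for failing the macrophage rule, which can itself lower the marker share, so no order of the receptor chains against the markers is read here.

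The GM-CSF receptor chains were close to equal between libraries, as Csf1r was, but differed from it in dendritic cells. Csf2ra was at 193 CPM (187 to 199) in control and 183 CPM (176 to 190) in knockdown macrophages low in tumour RNA, a log2 ratio of -0.08 (-0.18 to 0.02). Across all cells of the rule it was at 177 and 136 CPM, a log2 ratio of -0.39 (-0.48 to -0.29). Csf2rb was at 64.3 CPM (60.9 to 67.8) and 62.9 CPM (58.8 to 67.1), a log2 ratio of -0.03 (-0.20 to 0.14), and at 59.6 and 46.2 CPM over all cells, a log2 ratio of -0.37 (-0.53 to -0.20). Monocytes low in tumour RNA had more of both in the control library, with Csf2ra at 335 CPM (286 to 390) and Csf2rb at 118 CPM (90.2 to 153). In the knockdown library the monocyte values were 370 CPM (250 to 528) and 86.3 CPM (34.7 to 178), from 30 and 7 UMIs. Both monocyte members measured, Csf1r and Csf2ra, lay within 1.5-fold between libraries over all cells of the rule, where 16.6% of genes did not (3.18% higher and 13.4% lower).

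Dendritic cells, gated by Flt3, Zbtb46, Xcr1 and Clec9a, carried the GM-CSF receptor with little Csf1r. Below 20% tumour RNA (29 control and 26 knockdown cells) they had Csf2ra at 176 and 205 CPM and Csf2rb at 155 and 190 CPM. Csf2rb was thus at 240% and 302% of the macrophage level and Csf2ra at 91.3% and 112%, whereas Csf1r was at 2.84% and 3.41%, from 2 UMIs in each library. The C1q limit leaves out cells with macrophage RNA, which can itself lower the Csf1r share. The Csf2rb intervals of 108 to 214 and 134 to 261 CPM lay above those of macrophages. Neither ligand of CSF1R had a UMI in these cells. Over all cells of the gate Csf1 was at 50.4 and 69.9 CPM, from 80 and 105 UMIs, and Il34 at 58.6 and 72.6 CPM, from 93 and 109 UMIs, so the ligand counts lay in cells at or over 20% tumour RNA. Over the same cells Csf2rb was at 26.5 and 31.3 CPM and Csf2ra at 31.5 and 34.6 CPM, and the cells low in tumour RNA were 29 of the 90 and 26 of the 94. In NK cells Csf2ra was at 40.9 and 35.2 CPM, from 8 UMIs in each library, or 21.2% and 19.3% of the macrophage level. Macrophage markers in these cells were at 0.871% and 10.6% of the macrophage level, and their part in the Csf2ra values was not tested.

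Csf3r was higher in the knockdown library in macrophages low in tumour RNA. It was at 32.6 CPM (30.2 to 35.2) from 690 UMIs for the control tumour and 44.1 CPM (40.7 to 47.7), from 626 UMIs, for the knockdown tumour, and the intervals did not overlap. The log2 ratio was 0.44 (0.21 to 0.66), below 1.5-fold. At 3000 UMIs per cell Csf3r was seen in 9.59% and 11.6% of cells. Across all cells of the rule the levels were 30.4 and 32.5 CPM, a log2 ratio of 0.10 (-0.12 to 0.31) that turned to -0.04 under TMM scaling. Neutrophil markers in the same macrophages were lower in the knockdown library, at 24.5 against 1.48 CPM with 5 and 4 of 6 markers seen. Monocyte markers were at 405 and 248 CPM. Their part in the Csf3r value was not tested.

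**Figure D4:**
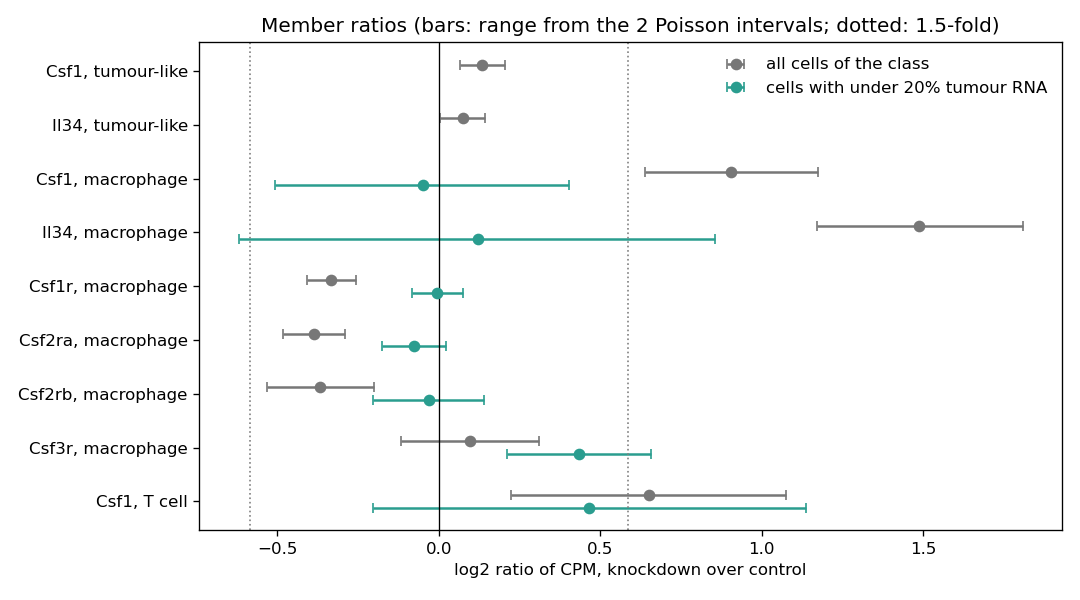
Log2 ratio of CPM (knockdown over control) of members by class, for all cells of the class (grey) and for cells with under 20% tumour RNA (green); bars are the range from the pair of Poisson intervals and dotted lines mark 1.5-fold. The macrophage ratios of Csf1 and Il34 (0.90 and 1.49) and of Csf1r, Csf2ra and Csf2rb (-0.33, -0.39 and -0.37) lie near 0 in cells low in tumour RNA, and that of Csf3r is 0.44 there.

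Few neutrophils were present to compare. Cells with at least 2 UMIs of Retnlg and Cxcr2, C1q under 5 per 10000 and under 20% tumour RNA numbered 6 among control and 0 among knockdown cells. Those 6 cells held 9 Csf3r UMIs, a level of 939 CPM (430 to 1783), against 32.6 CPM in the macrophages of that library. The UMIs lay in 3 cells, 4 of them in 1 cell. Over all 14 control cells of the gate Csf3r was at 155 CPM (88.4 to 251), from 16 UMIs, and the 1 knockdown cell had none. Csf3r was at 0.251 and 0.319 CPM in tumour-like cells, and T cells of no other class had none, which allows up to 1.65 and 2.19 CPM.

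Csf2rb2 is the mouse beta chain that serves interleukin 3 alone. Because Csf2rb and Csf2rb2 are near copies of each other, reads could be assigned to either and their values are uncertain to that extent. Over the macrophages low in tumour RNA Csf2rb2 was at 24.4 CPM (22.3 to 26.6) and 30.2 CPM (27.4 to 33.2), a log2 ratio of 0.31 (0.05 to 0.57), so its intervals, like those of Csf3r, did not overlap. It was at 22.4 and 21.6 CPM over all cells of the rule, a log2 ratio of -0.05 (-0.31 to 0.21).

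Macrophages high in interferon-induced Ifit genes (Ifit1, Ifit2 and Ifit3 at 10 or more per 10000) had less Csf2rb among the cells low in tumour RNA. Its level was 49.2 against 66.9 CPM in the control library and 49.99 against 68.0 CPM in the knockdown library. The log2 ratios were -0.44 (-0.76 to -0.13) and -0.44 (-0.76 to -0.14). Over all macrophages these were -0.39 (-0.70 to -0.09) and -0.25 (-0.55 to 0.04), the second with a range that holds 0. Csf3r was at 36.0 and 32.0 CPM in Ifit-high and Ifit-low control cells and at 51.5 and 41.2 CPM in knockdown cells. Ifit-high cells were 604 of 3589 control and 982 of 3182 knockdown macrophages. The knockdown level of Csf3r was the higher one in both subsets, with log2 ratios of 0.52 (0.05 to 0.99) in Ifit-high and 0.36 (0.10 to 0.62) in Ifit-low cells. Without the tumour RNA limit these were 0.34 (-0.11 to 0.80) and -0.03 (-0.28 to 0.21), so the direction in Ifit-low cells turned. Csf1r was at 271 and 307 CPM in Ifit-high and Ifit-low control cells and at 295 and 303 CPM in knockdown cells, with log2 ratios of -0.18 (-0.32 to -0.05) and -0.04 (-0.17 to 0.10). Over all knockdown macrophages the Csf1r value turned to 0.16 (0.03 to 0.29).

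**Figure D5:**
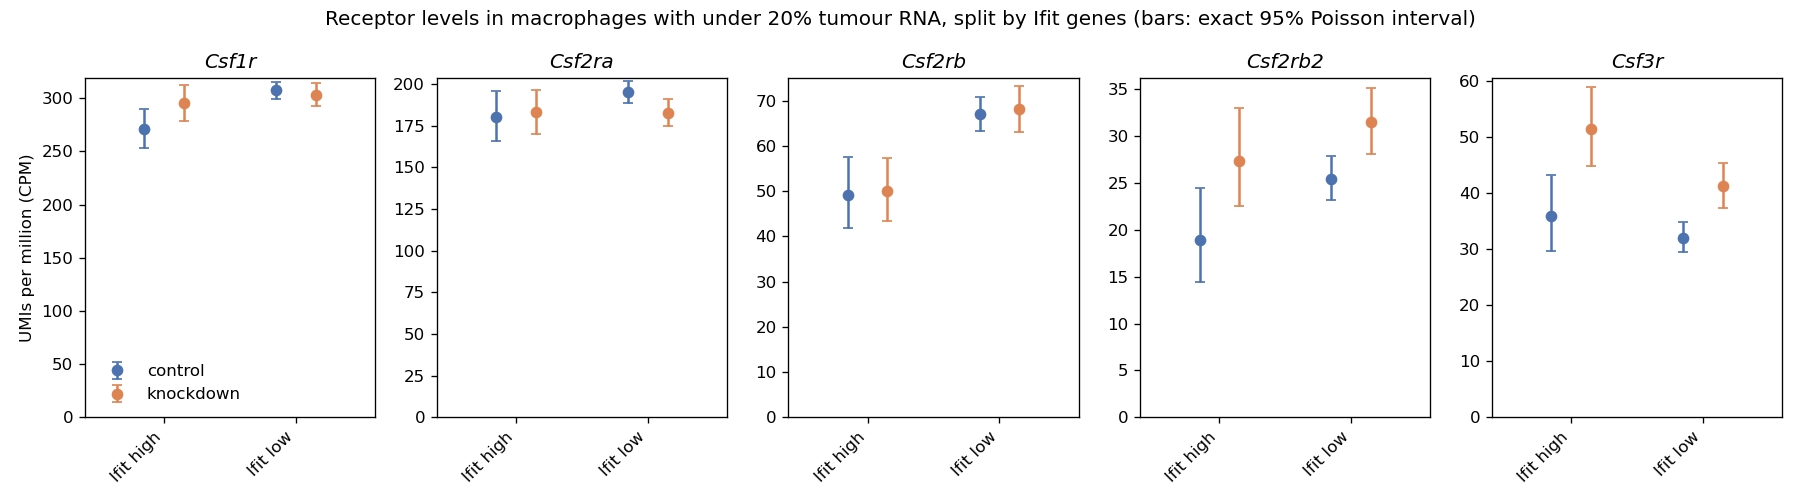
Level (CPM, linear axis, separate scale for each gene) of 4 receptor chains and Csf2rb2 in macrophages with under 20% tumour RNA, split by Ifit genes, in the control (blue) and knockdown (orange) library; bars are exact 95% Poisson intervals. Csf2rb is lower in Ifit-high cells of both libraries, and Csf3r is higher in the knockdown library in both subsets of these cells (without the tumour RNA limit, not in Ifit-low cells).

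Receptors were also found together in single macrophages. Among macrophages of 5000 to 10000 UMIs low in tumour RNA, Csf1r and Csf2ra were both seen in 59.3% of control cells (product of the shares 57.7%) and 55.2% of knockdown cells (product 54.4%). Csf1r and Csf3r were both seen in 16.1% and 20.1% of cells, with products of 15.6% and 19.2%. Csf1r was seen in 86.4% of control cells with Csf2ra and 78.8% of those without, and in 87.1% and 83.8% of knockdown cells. A UMI of neither gene was seen in 6.65% and 5.94% of these cells. Csf1r was seen in 86.8% of control cells with Csf3r and 83.4% of those without, and in 89.9% and 84.7% of knockdown cells. For Csf2ra with and without Csf2rb the shares were 69.9% and 68.0% in the control, and 65.9% and 62.3% in the knockdown library. Cells of this band still differ in depth, which can raise joint detection. No interval was computed, so no link between receptors is read from these shares.

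Genes with the most similar pattern were ranked over 18 pools (populations by library) by Pearson r of log2(CPM + 1). The pools were not limited by tumour RNA and share libraries and depth, and r is given as a description. Csf1r was closest to Fcgr2b (0.98), an inhibitory antibody receptor, then Arhgap24 (0.97). Csf2ra was closest to F11r (0.98), Syk (0.97), a kinase of immune receptors, and Eepd1 (0.97). Csf2rb was closest to Spint1, Gm34084 and Marchf1 (0.995, 0.988 and 0.988), and Csf3r to Gm35154, Tlr8 and Sirpb1a (0.997, 0.992 and 0.991). Il34 was closest to Prkg2, Rgma and Chic1 (0.96, 0.95 and 0.94). Csf1 was closest to Bod1, Phldb1 and Bok (0.93, 0.92 and 0.91), and Csf2 to Cd55, Cracdl and Gfi1 (0.99, 0.97 and 0.95). Csf2 had only 64 and 71 UMIs in the kept cells, and 10 of the 13 in control NK cells came from 1 cell.

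Of 68 other genes of the pathway, 54 were measured in macrophages low in tumour RNA, and 1 was past 1.5-fold, against 3.04% of all genes. It was Tnf, an inducer of CSF genes, at 311 and 492 CPM, a log2 ratio of 0.66 (0.59 to 0.73). Over all cells of the rule Tnf was not past 1.5-fold. In the cells low in tumour RNA the list's median log2 ratio was 0.07, beside -0.00 over all 9836 measured genes. None of the 20 signalling genes and none of the 13 measured myeloid transcription factors was past 1.5-fold. Il1b (184 and 259 CPM, 0.49) and the feedback inhibitor Socs1 (52.0 and 72.7 CPM, 0.48) lay just inside 1.5-fold, and were named after their values were seen.

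Over all cells of the macrophage rule 4 of 56 measured pathway genes were past 1.5-fold, where 11.7% of all genes were (10.5% higher and 1.26% lower), so the list did not exceed the background. Kitl (11.5 and 27.0 CPM, log2 ratio 1.24), Sdc1 (5.98 and 9.53 CPM, 0.67) and the feedback inhibitor Spry2 (4.13 and 23.2 CPM, 2.49) were higher in the knockdown library, and Tfec (19.8 and 12.6 CPM, -0.64) was lower. Below the 20% limit Kitl was at 8.70 and 10.4 CPM (0.25) and Tfec at 21.8 and 17.4 CPM (-0.32), and Sdc1 and Spry2 had under 100 UMIs. Tumour-like cells had Spry2 at 20.4 and 35.9 CPM (0.82) and Tnf at 2.17 and 4.21 CPM (0.96), the 2 of 50 measured genes past 1.5-fold, both higher in the knockdown library. That is close to the 3.06% of all genes past it there.

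In T cells 3 of 42 measured pathway genes were past 1.5-fold, all higher in the knockdown library, among them Spry2 (0.91) and Irf8 (0.69), where 3.15% of all genes were (2.07% higher and 1.08% lower). Under the 20% limit 1 of 36 was, Irf8, at 201 and 302 CPM (0.59), where 2.24% of genes were (1.38% higher and 0.861% lower). These T cells had macrophage markers at 11.4% and 12.1% of the macrophage level, and the part of macrophage RNA in the Irf8 values was not tested. In monocytes 4 of 18 pathway genes were past 1.5-fold, all lower. The 3 lowest were Il1b (-1.06), Pim1 (-0.9997) and Socs3 (-0.72), each on 14 to 43 UMIs in the knockdown library. In this class 16.6% of all genes were past 1.5-fold, and 13.4% were lower, so the count is near the background. With under 20% tumour RNA 4 of 17 were, all lower, where 22.6% of genes were (8.58% higher and 14% lower), the 3 lowest being Stat3 (-0.84), Il1b (-0.72) and Socs3 (-0.69).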

How the data were processed

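The authors deposited 1 UMI count matrix per library, with gene and barcode lists. The file headers name Cell Ranger 6.1.0 and the submitters' processing notes name version 3.1.0; the genome build and aligner settings are not given in the sources used here, so no coordinates come from the files. The deposited values are raw counts of UMIs. Cells with under 200 genes or over 20% mitochondrial UMIs were left out (34 and 164 control, 19 and 72 knockdown cells), as were the highest Scrublet scores (scanpy 1.11.5), at 8 doublets per 1000 cells for each 1000 cells, by rank: 1148 control and 1322 knockdown cells. UMIs were summed by class and library and scaled to all UMIs of that population. Intervals are exact Poisson for levels and Clopper-Pearson for shares, at 95%. UMIs mark molecules, but the intervals cover counting error only. A gene was measured with at least 100 UMIs in 1 library and called past 1.5-fold; no test was made. Detection at 3000 UMIs is the hypergeometric expectation, with shallower cells left out: 631 control and 1037 knockdown macrophages low in tumour RNA, and no tumour-like cell. Promoter matches were searched for on both strands. The ratio and its range were run on simulated Poisson counts. That is the model behind the range, so the run checks the computation only, not spread between cells or tumours. Classes may overlap: 148 and 179 cells met more than 1 rule. Within 1.25 times of a cut lay 196 and 242 macrophages and 157 and 400 tumour-like cells.

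The tumour RNA list needed at least 100 CPM in tumour-like cells without Xist and a 10-fold excess over Xist-positive leukocytes without Hmga2 in both libraries, and holds no member; it was made after the data were seen. The members and lists were chosen with earlier results of these data known. Named genes are all members, the 3 highest and 3 lowest pathway genes past 1.5-fold per class, Csf2rb2, the 3 genes most like a member, and Gfpt2. Outside this rule, Spi1 was named for the searched motif, and Il1b and Socs1 in macrophages for values near 1.5-fold, after their values were seen. A few results under the rule are not reported here. Alternatives covered doublet removal, class cuts, scaling, cell weighting and mitochondrial limits.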

Additional observations from a re-analysis of the deposited data

Results flagged for a closer look

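Kept cells that met no class rule, 904 control and 1146 knockdown cells, are in none of the class comparisons, and 7 members had more than 3 UMIs there, the count that a 0 allows. Csf2 had 21 of its 64 UMIs (32.8%) there in the control library, and 8 of 71 (11.3%) in the knockdown library. Cells of the NK gate held 13 and 7 of these, with 10 and 4 in 1 cell, so much of the control count came from a single NK cell. The Csf1 counts were 610 (7.49%) and 609 (7.73%), and those of Il34 609 (7.54%) and 631 (8.32%). Csf1r had 100 (1.43%) and 68 (1.35%) UMIs, and Csf2ra 185 (3.95%) and 130 (4.05%). Csf2rb had 147 (8.73%) and 114 (9.59%), and Csf3r 30 (3.77%) and 15 (2.00%).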

How the results depend on the processing

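In tumour-like cells the Csf1 ratio lay between 0.07 and 0.19 and the Il34 ratio between 0.0083 and 0.091 over 10 alternatives each, within their ranges. Over all macrophages of the rule, Scrublet's own threshold gave -0.00998 for Csf1r, -0.075 for Csf2ra, -0.059 for Csf2rb and 0.42 for Csf3r. Cells with under 20% tumour RNA gave -0.0054, -0.077, -0.032 and 0.44, and those with under 10% gave -0.0062, -0.072, -0.019 and 0.42. Under these 2 limits, chosen after seeing the data, the Csf1 ratio of macrophages turned from 0.90 to -0.049 and -0.039. Scaling by the median of ratios gave -0.43 for Csf1r and -0.48 for Csf2ra, and TMM gave -0.47 and -0.52; TMM shifted the macrophage ratios by 0.14. Pathway genes past 1.5-fold without doublet removal numbered 2 in macrophages, 2 in monocytes and 1 in T cells. With under 20% tumour RNA they numbered 1 in macrophages and 1 in T cells. Measured from 50 UMIs, they numbered 5 in T cells and 4 in tumour-like cells. No share of all genes is given for the counts without doublet removal or from 50 UMIs, so those are not read against a background. Without the tumour RNA limit the Ifit-high over Ifit-low ratio in the knockdown library was 0.16 for Csf1r and -0.25 for Csf2rb. The causes were not tested. Of 212 values 171 kept to the range of the reported one (counts: within 1.5 times). No paired analysis was possible because each group had 1 library, and for the same reason no replicate could be left out. Csf2, Csf3 and the monocytes of the knockdown library are limited by few UMIs.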
